A study of Homo sapiens with 4 samples.

Results

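VEGFA, BNIP3 and LDHA are textbook target genes of the hypoxia-inducible factors (HIF), and they were examined here as 3 of the 14884 genes measured in a colon carcinoma cell line. They were chosen because their values with verticillin A differed from those of the control in opposite directions, VEGFA being lower and BNIP3 and LDHA higher. Their changes are therefore given as a description, with no test. All 4 arrays measured LS411N-5FU-R, a derivative of the metastatic colon carcinoma line LS411N that resists the antimetabolite 5-fluorouracil (5-FU), so the control cells carry the resistance too, and whether the line is 1 clone is not given in the sources used here. The control group (0 nM, 2 arrays) was grown without verticillin A, an epipolythiodioxopiperazine made by fungi, and the treated group (2 arrays) with 50 nM of it for 3 days. The labels name a CO2 incubator and give no oxygen level.

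In oxygenated cells, prolyl hydroxylases of the EGLN family mark the HIF alpha subunits (HIF1A, EPAS1), and the VHL ubiquitin ligase then directs them to degradation. When oxygen is low the alpha subunits persist, pair with ARNT and bind genes that carry the core sequence ACGTG or GCGTG. VEGFA is a secreted growth factor that acts on endothelial cells through the receptors KDR and FLT1. BNIP3 is a protein of the outer mitochondrial membrane that recruits the autophagy machinery to mitochondria. LDHA is the lactate dehydrogenase subunit that favours the reduction of pyruvate to lactate and so restores NAD+ for glycolysis. All 3 genes also respond to signals other than oxygen, VEGFA for instance to growth factor and amino acid stress signalling.

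Promoter sequences are shown for BNIP3 and LDHA, the genes for which a window was found, and were searched for the HIF core sequence. VEGFA had no window in the set used, so it is missing here whatever its direction of change. RefSeq promoter windows of assembly GRCh38.p14 were found for 2 of the 3 genes, and the 250 bases before each annotated start are printed 5′ to 3′ on the gene's strand. Capitals mark ACGTG on either strand, the reverse complement being CACGT, and CACGTG is the overlap of both.
BNIP3, chr10:131981924-131982173, minus strand: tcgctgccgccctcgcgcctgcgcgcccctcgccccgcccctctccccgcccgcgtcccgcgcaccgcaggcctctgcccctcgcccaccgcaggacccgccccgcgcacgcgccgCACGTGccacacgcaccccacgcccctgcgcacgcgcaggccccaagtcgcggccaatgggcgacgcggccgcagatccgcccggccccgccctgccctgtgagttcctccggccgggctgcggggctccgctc
LDHA, first start, chr11:18394313-18394562, plus strand: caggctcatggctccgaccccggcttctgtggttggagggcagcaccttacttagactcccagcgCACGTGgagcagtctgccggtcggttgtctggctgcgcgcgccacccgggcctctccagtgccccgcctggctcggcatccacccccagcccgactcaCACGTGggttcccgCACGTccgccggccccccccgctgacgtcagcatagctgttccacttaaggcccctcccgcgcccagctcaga
LDHA, second start, chr11:18396101-18396350, plus strand: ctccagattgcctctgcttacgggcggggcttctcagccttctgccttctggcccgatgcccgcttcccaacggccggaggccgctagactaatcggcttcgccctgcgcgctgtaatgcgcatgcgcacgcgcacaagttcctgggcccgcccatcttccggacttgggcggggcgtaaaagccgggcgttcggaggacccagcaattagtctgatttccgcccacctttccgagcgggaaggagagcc

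The BNIP3 window held a single CACGTG, 134 to 129 bases before the start, which counts as 2 matches of ACGTG over both strands. It also held 4 matches of GCGTG, all on the other strand. The window before the first LDHA start held 5 matches of ACGTG, namely a CACGTG 185 to 180 bases and another 87 to 82 bases before the start, and a match on the other strand 73 to 69 bases before it. The window before the second LDHA start held 0 matches of ACGTG and 1 of GCGTG. Among all 35116 windows of that length in the table, 18.5% held ACGTG on either strand, 6.34% held CACGTG, 1.55% held 3 or more matches of ACGTG, and 32.2% held GCGTG. The windows are rich in G and C (81.6% for BNIP3, 69.6% and 64.8% for LDHA). A match is a run of letters and was not tested as a binding site.

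VEGFA had log2 values of 8.60 and 8.71 on the control arrays and of 7.62 and 7.62 on the arrays with verticillin A. Both treated arrays were below both control arrays, with a gap of 0.98 between the groups and at most 0.11 between arrays of a group. The means were 8.66 ± 0.08 and 7.62 ± 0.0028 (SD, n = 2 per group), a log2 change of -1.03 ± 0.07 (SE) or 2.05-fold lower. Counted from the most negative change, this was place 54 among all genes.

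BNIP3 had log2 values of 9.34 and 9.23 without and of 10.03 and 10.10 with verticillin A. Both treated arrays were above both control arrays, and the gap of 0.69 between the groups was wider than the 0.12 between the control arrays. The means were 9.28 ± 0.08 and 10.06 ± 0.04 (SD, n = 2 per group), a log2 change of 0.78 ± 0.08 (SE) or 1.72-fold higher. Counted from the largest positive change, BNIP3 held place 63.

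LDHA had log2 values of 7.62 and 7.63 without and of 8.19 and 8.07 with verticillin A. Its treated arrays were both higher as well, with a gap of 0.44 between the groups, and here it was the treated arrays that differed more from each other (0.12). The means were 7.62 ± 0.002 and 8.13 ± 0.09 (SD, n = 2 per group), a log2 change of 0.51 ± 0.08 (SE) or 1.42-fold higher, at place 276 from the top.

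**Figure D1:**
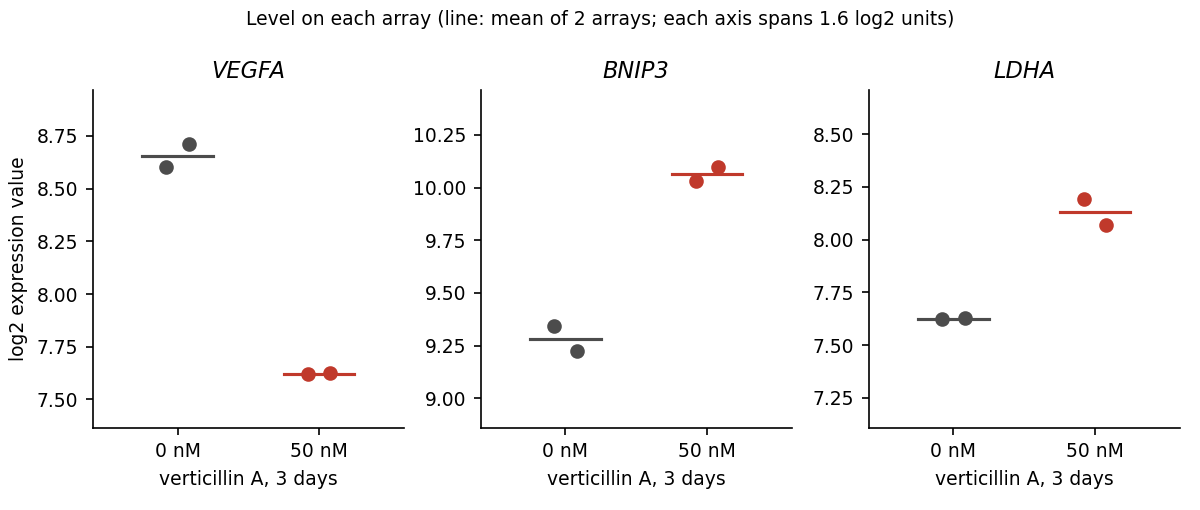
Log2 expression values of VEGFA, BNIP3 and LDHA on each of the 4 arrays (vertical axis) against the dose of verticillin A (horizontal axis). Points are arrays and lines are means of 2 arrays. The treated arrays lie below the controls for VEGFA, at 7.62 against 8.60 and 8.71, and above them for BNIP3 and LDHA.

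The groups did not overlap for any of the 3 genes. This arrangement was found in 54.8% of all genes, with both treated arrays higher in 25.7% and lower in 29.1%. Because the genes were chosen from this same comparison, their count is not read against that share. Leaving out any single array moved the log2 change of VEGFA between -1.09 and -0.98 and that of BNIP3 between 0.72 and 0.84. That of LDHA moved between 0.44 and 0.57. The sign of each stayed as it was in all 12 alternative analyses, which for most of them was fixed in advance. A changed prior, set of genes or block leaves the mean difference of a gene as it is. Leaving out 1 array cannot reverse groups that do not overlap. Each gene is represented by 1 probe set, so splice forms of VEGFA were not told apart, and RNA of the processed pseudogenes related to LDHA or BNIP3 could reach their probes. In a bulk culture a different share of expressing cells and a different level per cell cannot be told apart, and arrays normalized to the same distribution do not show a change of total RNA per cell.

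**Figure D2:**
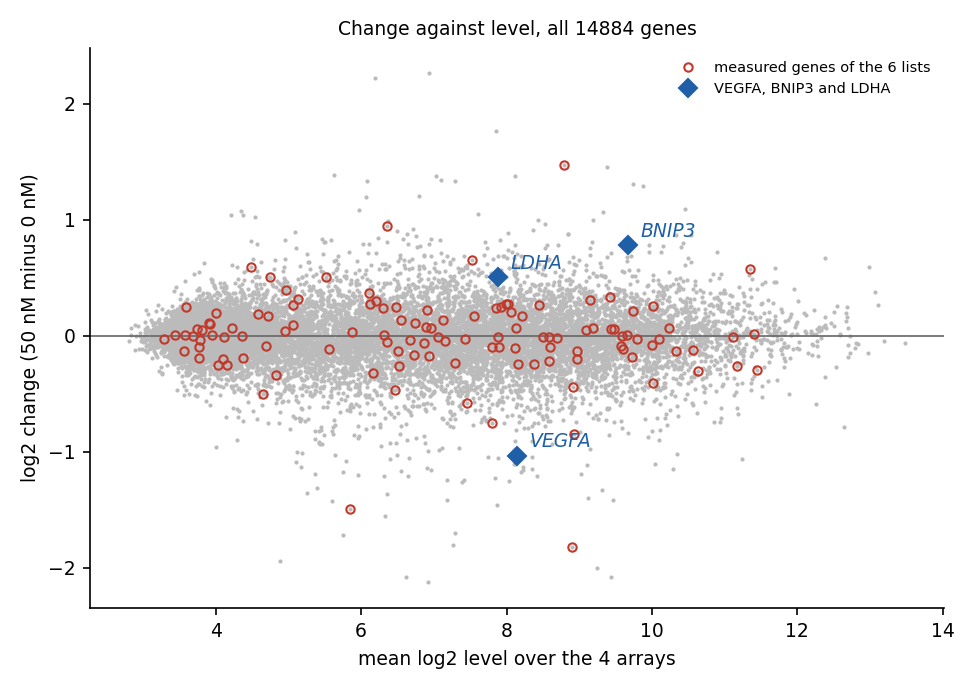
Log2 change (50 nM minus 0 nM, vertical axis) against the mean log2 level over the 4 arrays (horizontal axis) for all 14884 genes (grey), the measured genes of 6 pathway lists (open circles) and the 3 genes (diamonds). VEGFA lies at -1.03, BNIP3 at 0.78 and LDHA at 0.51.

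Over all 14884 genes, limma with Benjamini-Hochberg adjustment called 1287 genes (8.65%) at an adjusted p under 0.05, 528 higher (3.55%) and 759 lower (5.10%). With the arrays centred on their medians the split was 750 higher and 668 lower. When the unnamed probe sets were included in the fit only 6 and 12 of these genes passed, and without either control array 0 passed (3715 and 3528 genes at an unadjusted p under 0.05). With the replicate number as a block, 228 passed as higher and 364 as lower. The calls below are read with those limits. Pearson's r across probe sets, which are not replicates, was 0.9936 between the controls, 0.9948 between the treated arrays and 0.9899 to 0.9916 between arrays of different groups. Of 10 measured colon epithelial marker genes 7 were above the table's median on every array, EPCAM and KRT18 among them, whereas CDX1, GPA33 and KRT20 were not. That median, 4.59 to 4.62, includes the unnamed probe sets. The median of the named genes was 5.82 to 5.89, and CDX2, TFF3 and, with verticillin A, VIL1 lay below it. VIL1 fell by 0.62 (limma adjusted p = 0.0167) and KRT19 rose by 0.44 (limma adjusted p = 0.0493). Of the 7 measured leukocyte, fibroblast and endothelial markers 0 were above the table's median on all arrays.

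Genes of 6 lists around the 3 genes were counted next, from the oxygen sensor to the products. The lists hold 119 distinct measured genes besides VEGFA, BNIP3 and LDHA. In limma 6 of them rose (5.04%) and 7 fell (5.88%), beside 3.55% and 5.10% of all genes. The lists were unlike in this. Among 32 hypoxia targets 4 rose and 3 fell, whereas the lists of HIF subunits and of lactate and pyruvate handling had 0 called. Whether a list departs from all genes was not tested. The median log2 change of all genes was -0.01.

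The HIF machinery gave no call. Of 18 listed genes of HIF subunits and oxygen sensing, 8 were measured and 0 rose or fell in limma, with 3 at an unadjusted p under 0.05 (26.7% of all genes were) and a median log2 change of -0.10. HIF1A and VHL were not analysed here. EPAS1, the alpha subunit HIF-2 alpha, averaged 7.96 ± 0.15 without and 8.16 ± 0.09 with verticillin A on the log2 scale (SD, n = 2 per group, limma adjusted p = 0.261). ARNT, the shared partner subunit, had a log2 change of -0.11 ± 0.07 (SE, limma adjusted p = 0.372). The hydroxylase EGLN1 stood at 9.66 ± 0.13 and 9.67 ± 0.13 with overlapping groups. EGLN3, a hydroxylase that is itself induced by HIF, had values of 4.49 and 4.49 without and 4.64 and 4.71 with verticillin A (log2 change 0.19 ± 0.07, SE, limma adjusted p = 0.156). The smallest p-values belonged to the coactivator CREBBP (-0.30 ± 0.07, limma adjusted p = 0.0573) and to the ARNT paralogue ARNT2 (-0.47 ± 0.13, limma adjusted p = 0.0824). CREBBP passed after a second quantile normalization (limma adjusted p = 0.0495), and both passed with a prior that follows the mean level (0.00245 and 0.0436) and with the dimmer 7442 genes left out (0.0149 and 0.0301).

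Other hypoxia targets went both ways. Of 47 listed genes outside glycolysis 32 were measured, and 4 rose and 3 fell (3.55% and 5.10% of all genes). An unadjusted p under 0.05 was found for 15 of the 32 (26.7% of all genes). Both treated arrays were above both controls in 10 (25.7% of all genes) and below them in 13 (29.1%). The median log2 change was -0.0048, with 16 changes on either side of 0. HMOX1, the haem oxygenase, rose from values of 7.99 and 8.11 to 9.51 and 9.54 (log2 change 1.47 ± 0.08, SE, limma adjusted p = 0.00335). ANGPTL4, a secreted inhibitor of lipoprotein lipase, rose from 5.93 and 5.84 to 6.75 and 6.91 (0.95 ± 0.09, limma adjusted p = 0.0093). The arrays of the 2 groups were well apart for both. IGFBP3, an insulin-like growth factor binding protein, rose by 0.50 and the membrane protein gene TMEM45A by 0.37 (limma adjusted p = 0.033 and 0.0454). Both lost their call with the replicate number as a block (0.0555 and 0.0714).

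Among the targets that fell, DDIT4, an inhibitor of mTORC1 signalling, went from 9.82 ± 0.16 to 7.99 ± 0.0084 (SD, n = 2 per group), a log2 change of -1.82 ± 0.10 (SE, limma adjusted p = 0.00335). STC2, a secreted glycoprotein hormone, went from 9.30 and 9.41 to 8.52 and 8.49 (-0.85 ± 0.07, limma adjusted p = 0.00911). KLHL24, a substrate adaptor of a ubiquitin ligase, fell by 0.75 (limma adjusted p = 0.0168). DDIT4 and STC2 are known as targets of ATF4 as well as of hypoxia, and HMOX1 as a target of NRF2, so this list is not specific to oxygen. With the unnamed probe sets in the fit, HMOX1 and DDIT4 were the 2 genes of the lists still called.

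Several common reporters of a HIF response were not among these calls. ADM, the vasodilator adrenomedullin, had values of 6.76 and 6.83 without and 7.03 and 7.01 with verticillin A (log2 change 0.22 ± 0.07, SE, limma adjusted p = 0.111). ANKRD37, an ankyrin repeat gene, changed by 0.27 ± 0.10 (limma adjusted p = 0.154) and NDRG1, a stress-responsive gene, by 0.07 ± 0.09 with overlapping groups (limma adjusted p = 0.73). MIR210HG, the host transcript of the hypoxia-induced miR-210, was named after its values were seen. It had values of 5.32 and 5.22 without and 5.91 and 5.63 with verticillin A (0.50 ± 0.11, limma adjusted p = 0.0552). ADM passed with the dimmer genes left out (limma adjusted p = 0.0355) and MIR210HG with the mean-dependent prior (0.0377). CA9 was not analysed here.

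**Figure D3:**
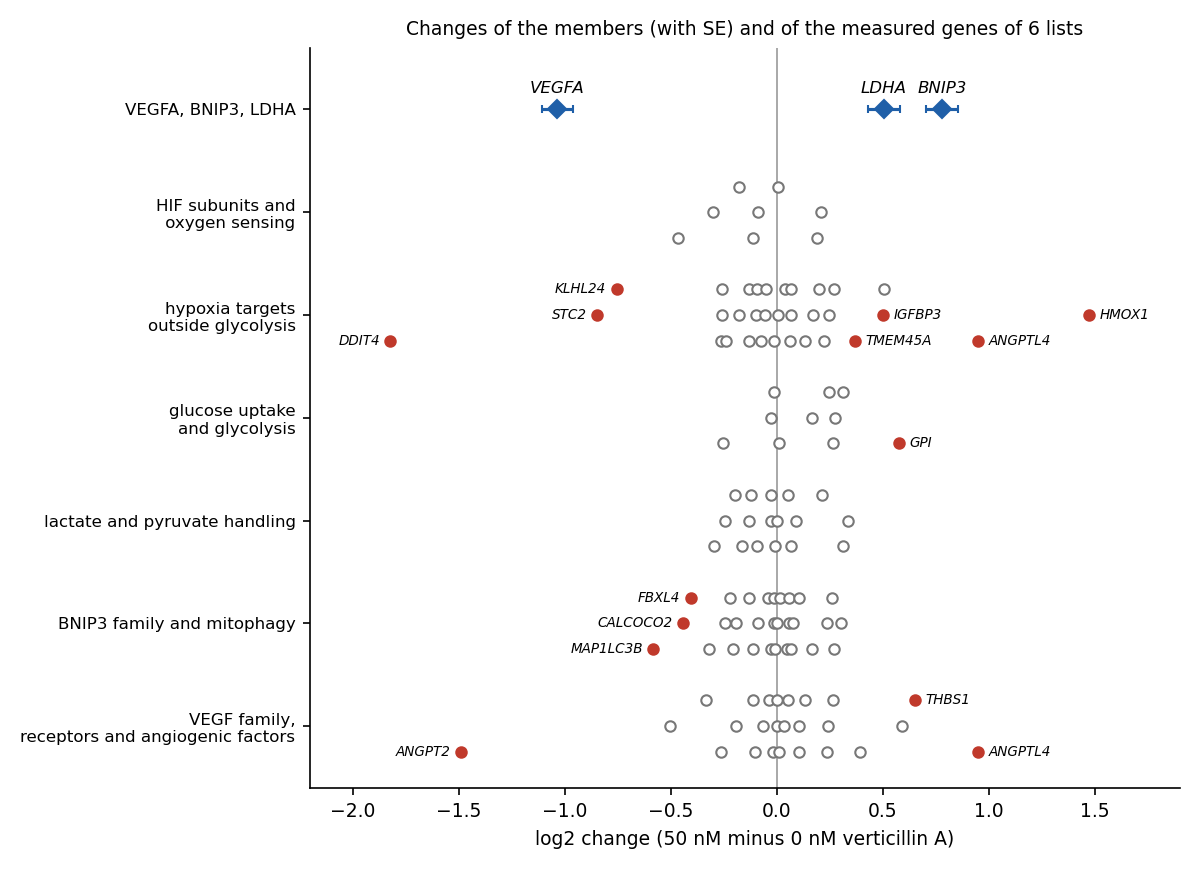
Log2 change (50 nM minus 0 nM, horizontal axis) of VEGFA, BNIP3 and LDHA (diamonds, with SE) and of each measured gene of the 6 lists (circles, spread vertically for legibility only). Filled circles passed limma's adjusted p under 0.05. DDIT4 (-1.82) and ANGPT2 (-1.49) lie furthest to the left and HMOX1 (1.47) furthest to the right among the list genes.

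LDHA was accompanied by 1 glycolytic gene that passed. Of 30 listed genes of glucose uptake and glycolysis 10 were measured, and 1 rose and 0 fell (3.55% and 5.10% of all genes). The median log2 change was 0.21 against -0.01 for all genes. An unadjusted p under 0.05 in limma was found for 6 of the 10 (26.7% of all genes), PGAM2, which was lower, among them. GPI, which converts glucose 6-phosphate to fructose 6-phosphate, had values of 11.05 and 11.08 without and 11.63 and 11.64 with verticillin A (log2 change 0.58 ± 0.07, SE, limma adjusted p = 0.0142). Its treated arrays stood clearly apart from the controls. PGK1, phosphoglycerate kinase, had values of 8.97 and 9.03 without and 9.37 and 9.25 with verticillin A (0.31 ± 0.08, limma adjusted p = 0.0677). In 6 of the 10 genes both treated arrays were above both controls (25.7% of all genes) and in 1, the muscle form PGAM2, both were below (29.1%). PGAM2 averaged 4.16 without and 3.91 with verticillin A. Like HK3 and PGK2, it lay below the array medians of 4.59 to 4.62, where a gene could not be separated from background. PGK1 and GAPDH passed when arrays were centred on their medians (limma adjusted p = 0.0458 and 0.0472), which gave 3 genes higher, and GPI missed the threshold with any 1 array left out (0.0716 to 0.0823). SLC2A1, ALDOA, ENO1 and PKM were not analysed here.

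At the step of LDHA itself, the other subunits gave no call. LDHB, the subunit that favours the use of lactate, had values of 10.09 and 10.12 without and 10.09 and 10.08 with verticillin A, a log2 change of -0.03 ± 0.07 (SE, limma adjusted p = 0.861) beside 0.51 ± 0.08 for LDHA. The difference between the subunits was not tested, because LDHA was chosen for its change. LDHC, the testis form, was dim (3.71 without and 3.77 with verticillin A) and changed by 0.05 ± 0.09 with overlapping groups (limma adjusted p = 0.755). Of 27 listed genes of lactate and pyruvate handling 17 were measured and 0 passed in limma, with 6 at an unadjusted p under 0.05 (26.7% of all genes) and a median of -0.03. The smallest p-values were those of the mitochondrial D-lactate dehydrogenase LDHD (0.31 ± 0.07, limma adjusted p = 0.0623) and the mitochondrial pyruvate carrier subunit MPC2 (0.33 ± 0.08, limma adjusted p = 0.064). LDHD passed after a second quantile normalization and after centring (0.0436 and 0.0432), and MPC2 passed with the mean-dependent prior and with the dimmer genes left out (0.00766 and 0.0187). The lactate transporters SLC16A1 and SLC16A3 and the kinase PDK1 were not analysed here.

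The closest relative of BNIP3 gave no call. BNIP3L, the paralogue also called NIX, had values of 10.37 and 10.42 without and 10.27 and 10.26 with verticillin A, a log2 change of -0.13 ± 0.07 (SE, limma adjusted p = 0.292) beside 0.78 ± 0.08 for BNIP3, and this difference was likewise not tested. Of 34 listed genes of the BNIP3 family and mitophagy 29 were measured, 0 rose and 3 fell (5.10% of all genes fell), with a median of -0.01. MAP1LC3B, the LC3 protein that BNIP3 binds on the autophagosome membrane, fell from 7.65 and 7.84 to 7.16 and 7.17 (-0.58 ± 0.09, limma adjusted p = 0.0235). CALCOCO2, the autophagy receptor NDP52, fell by 0.44 (limma adjusted p = 0.0259). FBXL4, part of a ubiquitin ligase that limits the amounts of BNIP3 and BNIP3L protein, fell from 10.16 and 10.29 to 9.80 and 9.84 (-0.41 ± 0.08, limma adjusted p = 0.0389). With the replicate number as a block only MAP1LC3B of these passed (limma adjusted p = 0.0478, against 0.056 and 0.063), and all 3 missed the threshold with any 1 array left out. Centring the arrays added 2 genes called higher, PHB1 (limma adjusted p = 0.0467) and GABARAPL2 (0.049).

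VEGFA was lower while the 3 other ligands measured, VEGFB, VEGFC and PGF, gave no call, and VEGFD was not analysed here. VEGFB, a ligand of FLT1, had log2 levels of 6.31 ± 0.03 and 6.32 ± 0.12 (SD, n = 2 per group, limma adjusted p = 0.989). VEGFC, the lymphatic growth factor, averaged 3.86 without and 3.96 with verticillin A and changed by 0.11 ± 0.10 (SE, limma adjusted p = 0.597). PGF, placental growth factor, had values of 4.83 and 4.71 without and 5.08 and 5.24 with verticillin A (0.39 ± 0.09, limma adjusted p = 0.0573), so its treated arrays were the higher ones, opposite to VEGFA. The receptors and coreceptors FLT1, KDR, NRP1 and NRP2 had changes of 0.10, -0.19, 0.03 and 0.26 and did not pass (limma adjusted p from 0.193 to 0.884). FLT1 averaged 3.87 without and 3.97 with verticillin A, and KDR 4.47 and 4.28. Like VEGFC, both lay below the array medians of 4.59 to 4.62, where a gene could not be separated from background and a missing call says little.

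Of 32 listed genes of the VEGF family, its receptors and other angiogenic factors, 25 were measured, 2 rose and 1 fell (3.55% and 5.10% of all genes), with a median of 0.01. ANGPT2, a ligand of the TEK receptor that loosens vessels, fell from 6.76 and 6.42 to 5.41 and 4.78 (log2 change -1.49 ± 0.23, SE, limma adjusted p = 0.0247). Its treated arrays differed by more from each other than those of VEGFA, but the groups did not overlap. THBS1, thrombospondin, an inhibitor of angiogenesis, rose from 7.23 and 7.18 to 7.86 and 7.85 (0.65 ± 0.07, limma adjusted p = 0.0117). The other gene that rose was ANGPTL4, given above. Neither ANGPT2 nor THBS1 passed with the unnamed probe sets in the fit (limma adjusted p = 0.103 and 0.0685), and THBS1 missed the threshold with any 1 array left out (0.0608 to 0.0791).

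The ACGTG core was set beside these changes as a description. At least 1 window of the gene held it in 12 of 25 hypoxia targets outside glycolysis (48%), in 5 of 10 glycolysis genes (50%) and in 6 of 14 lactate and pyruvate genes (42.9%), against 21.7% of the 27305 genes with a window. It was found in 4 of 24 genes of the mitophagy list (16.7%), 5 of 20 of the VEGF list (25%) and 1 of 7 of the HIF list (14.3%). The 21.7% covers genes with a window whether measured or not, whereas the list counts cover measured genes only. The sets were not matched for base composition, and whether a list departs from that share was not tested. Among the genes that passed and were matched to a window, which leaves out HMOX1 and ANGPT2, ANGPTL4 and GPI, which rose, and DDIT4 and CALCOCO2, which fell, each had 1 match. IGFBP3, TMEM45A, THBS1, STC2, KLHL24, MAP1LC3B and FBXL4 had 0 in these 250 bases. Genes that rose and genes that fell were thus found among those with a match.

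The profiles over the 4 arrays were then compared, with each gene centred on its own mean and likeness measured as Euclidean distance on the log2 scale. BNIP3 and LDHA were 0.316 apart, and VEGFA was 1.54 from LDHA and 1.82 from BNIP3. The gene nearest to VEGFA was JUN, an AP-1 transcription factor, at 0.029, with values of 8.35 and 8.48 without and 7.36 and 7.36 with verticillin A. EGR1, an immediate early transcription factor (0.055), and ASS1, argininosuccinate synthetase (0.062), followed. The nearest to BNIP3 were the spindle checkpoint kinase BUB1 (0.054), LRP2BP (0.062) and LINC03033 (0.077). The nearest to LDHA were the destrin pseudogene DSTNP2 (0.025), whose probes may also read the parent gene, the actin-binding cofilin CFL2 (0.028) and LRRC46 (0.042). Within a distance of 0.1 there were 7 genes for VEGFA, 7 for BNIP3 and 47 for LDHA, whose change is smaller. With 4 arrays such likeness mostly restates the size of the change and the difference within each pair of arrays.

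**Figure D4:**
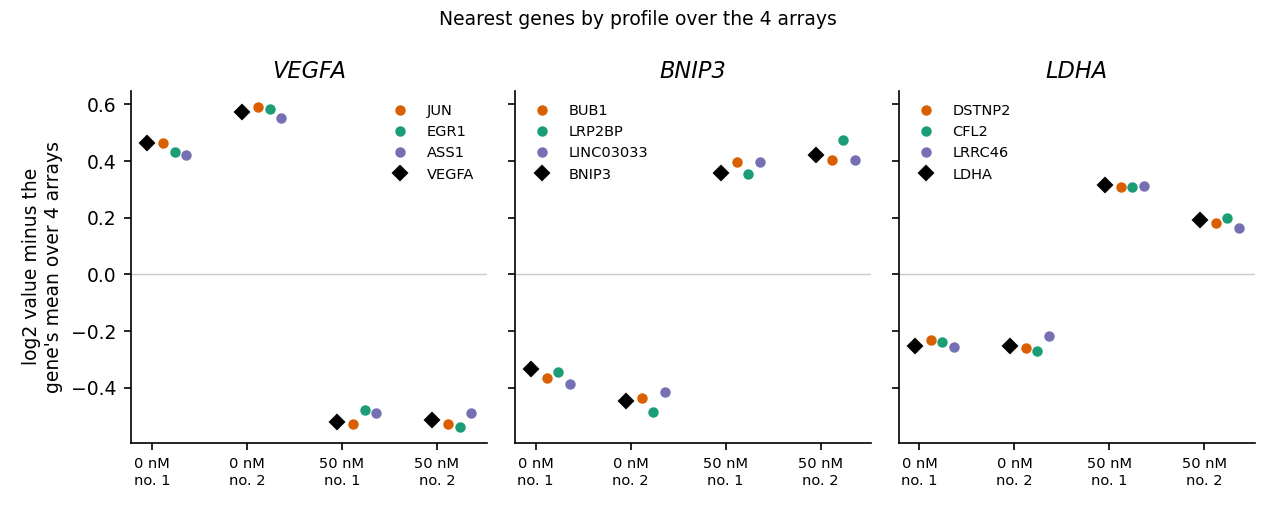
Log2 values minus each gene's mean over the 4 arrays (vertical axis) on each array (horizontal axis) for VEGFA, BNIP3 and LDHA (diamonds) and the 3 genes nearest to each (circles, shifted sideways). JUN lies 0.029 from VEGFA, BUB1 0.054 from BNIP3 and DSTNP2 0.025 from LDHA on the log2 scale.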

How the data were processed

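Biotin-labelled cDNA from total RNA of 4 samples of LS411N-5FU-R cells was measured on Affymetrix whole-transcript arrays, per the labels' protocols. The authors deposited 1 log2 value per probe set and array, for which the submitters' processing notes name GCRMA. Its version is not given in the sources used here. That the deposited values are log2 was read from their range, 2.6 to 14.47. The platform annotation named 16098 of 53617 probe sets, and symbols were updated by gene identifier (all 16098 matched). The probe set with the highest mean stood for a gene, which left 14884 genes. The labels do not say whether arrays of a group stem from separate cultures. A p-value therefore reflects the spread between these arrays alone, which may be technical. The number of arrays limits the precision.

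Differences (50 nM minus 0 nM) were tested over all genes with limma (version 3.58.1, under R 4.3.3; functions lmFit and eBayes, prior variance constant, 2 residual and 3.43 prior degrees of freedom), with Benjamini-Hochberg adjustment and a threshold of 0.05. The procedure was tested on simulated data whose variances were drawn from the same constant prior that the fit assumes. This checks that the fit runs as meant and cannot test that prior on these arrays. The 3 genes and the 6 lists were chosen with earlier results of these data known. Named genes were the 3 genes, their family and pathway partners, up to 4 called genes per list and direction (where none passed, the 2 with the smallest p) and the 3 nearest profiles per gene. Alternatives were the mean over probe sets, leaving out the dimmer genes, quantile normalization, median centring, a trended or robust prior, a fit over all probe sets, the replicate number as a block, and leaving out each array. Promoter windows came from RefSeq (GRCh38.p14).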

Additional observations from a re-analysis of the deposited data

How the results depend on the processing

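The log2 changes of VEGFA, BNIP3 and LDHA kept their sign under all 12 alternatives. With 1 array left out they ranged from -1.09 to -0.98, from 0.72 to 0.84 and from 0.44 to 0.57. With 2 arrays per group such a move cannot exceed the pooled SD of the gene, so this range is no test of stability.

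The counts of calls depended on the prior, the genes fitted and the arrays kept. Leaving out the dimmer genes (IGFBP3 among them) gave 1070 higher and 1329 lower over all genes, the trended prior 1067 and 1361, and the fit over all probe sets 6 and 12. Leaving out 1 array gave 0 to 52 higher and 0 to 105 lower, with 1 residual degree of freedom where all arrays give 2. The same-numbered arrays share only a number. Their deviations from the group means correlated at 0.012 over 14884 genes, and the replicate block gave 228 higher and 364 lower.

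Counts equal or close to those of the main analysis are mostly left out below, so the counts given are not totals. With the dimmer genes left out, the lists gave 2 lower for HIF subunits, 5 lower for hypoxia targets and 3 higher for glycolysis. They gave 2 higher and 2 lower for lactate and pyruvate, and 4 higher and 5 lower for mitophagy. The trended prior gave 2 lower for HIF subunits, 3 higher for glycolysis, 2 higher and 2 lower for lactate and pyruvate, 2 higher for mitophagy and 2 lower for the VEGF list. Quantile normalization gave 1 lower for HIF subunits, 2 higher for glycolysis and 1 higher each for lactate and mitophagy. Centring gave 3 higher for glycolysis, 1 for lactate and 2 for mitophagy. The mean over probe sets gave 2 lower for the VEGF list. The fit over all probe sets gave 1 higher and 1 lower hypoxia target and 0 in the other lists. The replicate block gave 2 hypoxia targets higher and 3 lower, 1 glycolysis gene higher and 1 mitophagy gene lower. In the VEGF list it gave 3 higher and 1 lower. ANGPTL4 counts in both the hypoxia and the VEGF list, and EDN1 was not called in the main analysis. Without 1 array, hypoxia targets had 0 to 2 higher and 0 to 3 lower, the VEGF list 0 to 1 in each direction, and glycolysis and mitophagy 0. The cause of these moves was not tested. Of the 13 genes of the lists that were called, 9 were still called with the replicate block and 0 changed sign under any alternative. Their groups did not overlap, so under most alternatives the sign was fixed in advance. No detection calls were used, so dim genes cannot be separated from background.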
